A study of Mus musculus with 21 samples.

Results

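The genes described here encode the vascular endothelial growth factor (VEGF), angiopoietin and apelin systems of blood vessel growth. The 10 genes were picked by name from 53738 gene symbols of the series: the ligands Vegfa, Angpt1, Angpt2 and Apln, the receptors Flt1 (VEGFR1), Kdr (VEGFR2), Tek (TIE2) and Aplnr (the apelin receptor), the secreted endothelial proteoglycan Esm1 (endocan), and Hif1a, which encodes the oxygen-regulated subunit of hypoxia-inducible factor 1. No threshold on the measured values was applied in picking them, but earlier results of these data were known when they were chosen.

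Muscle fibres and other cells of the tissue secrete VEGF-A, which signals in endothelial cells mainly through KDR, whereas FLT1 binds the ligand tightly, signals weakly and, in a soluble form, acts as a decoy. Angiopoietin-1 activates TEK and stabilises vessels, angiopoietin-2 is a context-dependent antagonist released by activated endothelium, and apelin acts on its receptor APLNR in growing endothelium. HIF-1 is a transcription factor stabilised at low oxygen, and VEGFA is among its classical targets. Endurance training is known to raise the capillary supply of skeletal muscle.

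RNA was sequenced from whole quadriceps muscle of adult male wild-type C57/Bl6 mice, in 7 groups of 3 libraries. Sedentary mice did not exercise, untrained mice ran once to exhaustion on a treadmill, and trained mice did so after 12 weeks with voluntary access to a running wheel. Untrained and trained muscle was collected 0 h, 6 h or 72 h after the bout, and there was no trained group at rest, so the trained libraries carry both the training and the bout. The labels do not state that each library came from a separate mouse, so p values measure the spread between these libraries.

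Replicate 1 of the untrained and replicate 1 of the trained 0 h group carried the same deposited value for all 53738 symbols, of which 25037 were above 0. It cannot be told to which group this library belongs. The series therefore holds 20 distinct libraries, and differences of the 10 genes at 0 h are given with the shared library in both groups and again without it (n = 2 per 0 h group). Expression is in TPM, the transcript abundance relative to a fixed total per library, a unit that corrects for transcript length, so levels of different genes can be set side by side. The values keep no read counts, so sequencing depth and counting error are unknown. Mitochondrially encoded genes made up 37.7% to 48.0% of each library. The 8 muscle fibre markers summed to between 90040 and 118080 TPM, and the 15 endothelial markers to between 122 and 160 TPM. In such bulk tissue, fewer cells of a type and less RNA per cell cannot be told apart.

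For 7 of the 10 genes, transcription start windows of 250 bases before to 50 bases after the start were found in the RefSeq promoter table (assembly GRCm38.p6). Aplnr, Angpt1 and Angpt2 were not matched. Both strands were searched for ACGTG and GCGTG, the cores of hypoxia response elements. One or the other core occurs in 43.8% of 32851 promoters of the same length, ACGTG in 19.6% and GCGTG in 32.4%. The windows of the VEGF receptor genes are shown because Flt1 and Kdr had fold changes of opposite sign at 0 h and 6 h after exercise, with the cores in capitals. Each window was matched exactly to GRCm39 and is printed 5′ to 3′ on the minus strand, on which both genes lie, at chr5:147662772-147663071 for Flt1 and chr5:76139066-76139365 for Kdr.
Flt1: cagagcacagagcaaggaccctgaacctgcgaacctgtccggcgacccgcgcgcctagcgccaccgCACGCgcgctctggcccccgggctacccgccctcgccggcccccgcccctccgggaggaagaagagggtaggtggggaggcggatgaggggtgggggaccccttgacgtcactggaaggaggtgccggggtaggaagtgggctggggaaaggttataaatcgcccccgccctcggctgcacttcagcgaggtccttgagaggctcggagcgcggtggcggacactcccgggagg
Kdr: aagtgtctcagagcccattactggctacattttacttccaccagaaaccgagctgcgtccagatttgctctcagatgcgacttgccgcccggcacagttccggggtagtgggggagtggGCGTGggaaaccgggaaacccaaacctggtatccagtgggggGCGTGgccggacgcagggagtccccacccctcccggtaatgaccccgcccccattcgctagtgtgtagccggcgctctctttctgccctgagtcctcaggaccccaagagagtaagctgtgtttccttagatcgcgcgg
The Flt1 window held GCGTG once, on the strand opposite to the gene and 184 bases before the start (printed as CACGC), and a TATAAA motif, present in 13.6% of promoters, at 31 bases before the start. The Kdr window held GCGTG at 131 and 89 bases before the start and no TATAAA. Hif1a had ACGTG at 3 positions, of which a pair on opposite strands made up the E-box CACGTG (7.2% of promoters). One of the 2 listed Vegfa windows had both cores and the other had neither. Esm1 had GCGTG once, and Tek and Apln had neither core. The AP-1 motif TGANTCA, which occurs in 7.8% of promoters, was absent from all of these windows. These letter matches are descriptions of the windows, not binding sites.

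A gene was tested where its mean was at least 1 TPM, which held for 11819 symbols and for 7 of the 10 genes. Angpt2, Apln and Esm1 were below this level. Differences were computed on log2(TPM + 0.5), which understates the fold change of low genes, with limma in 1 model of the 7 groups. A gene was called in a comparison at a Benjamini-Hochberg adjusted p below 0.05, over all tested genes, together with a change of at least 1.5-fold in either direction on this scale. By the moderated F test over all 7 groups, 5 of the 7 tested genes passed at an adjusted p below 0.05, beside 34.6% of all tested genes. These were Aplnr (adjusted p = 8.70e-08), Vegfa (0.0006), Angpt1 (0.000647), Flt1 (0.0062) and Kdr (0.0119). Tek (0.175) and Hif1a (0.990) did not pass.

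**Figure D1:**
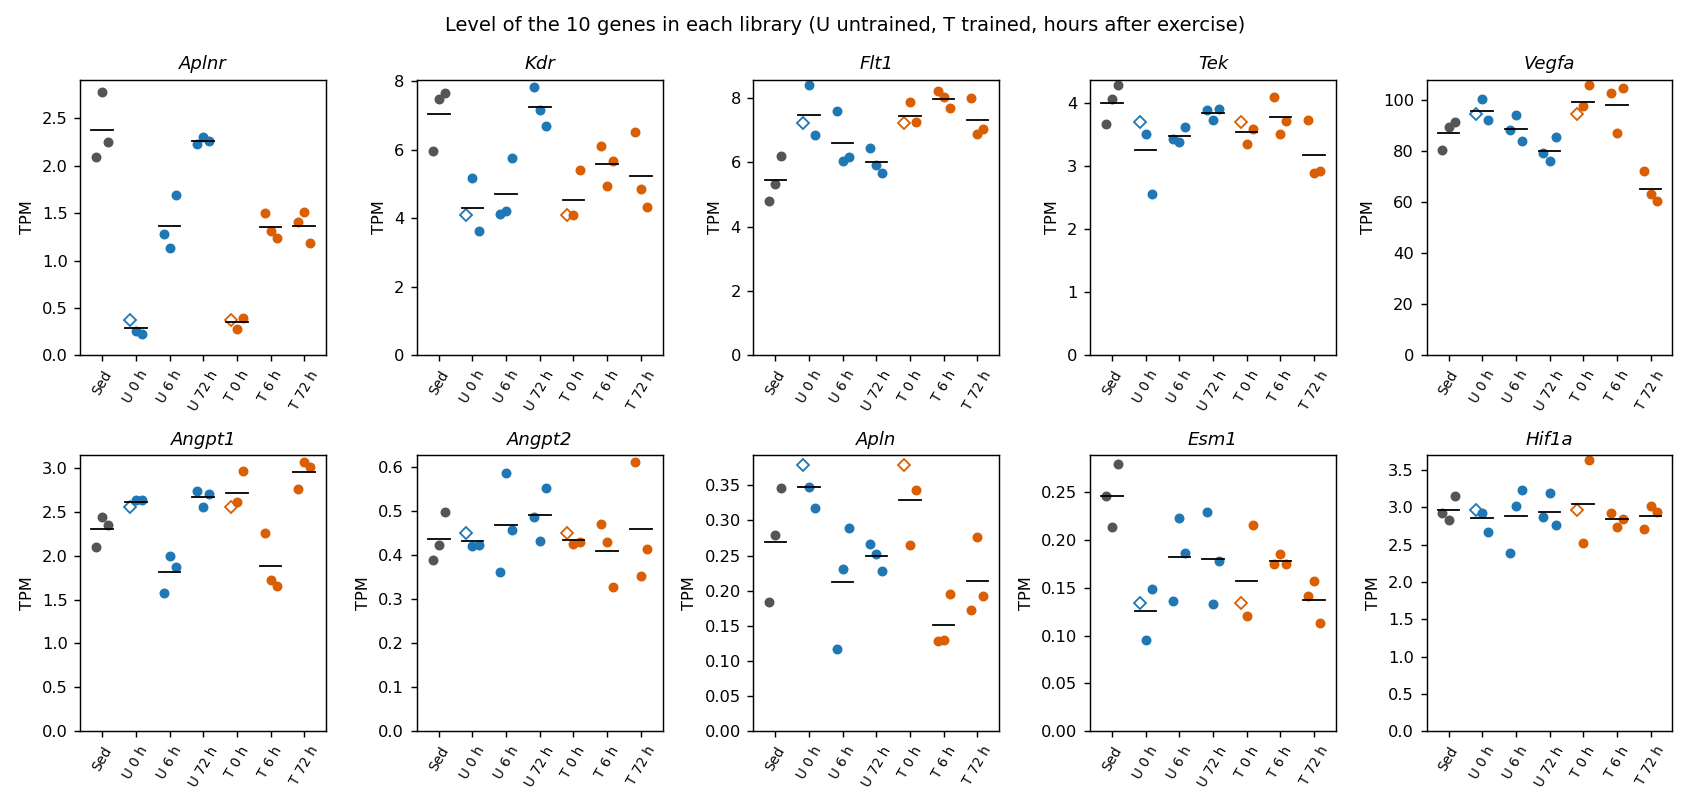
Level of each of the 10 genes in TPM (linear axis from 0) in every library, by group; Sed is sedentary, U untrained, T trained, the time is in hours after exercise, black bars are group means and open diamonds mark the library deposited in both 0 h groups. All 0 h libraries of Aplnr lie at 0.396 TPM or below and all sedentary libraries at 2.09 TPM or above, whereas Hif1a shows no such separation.

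The apelin receptor gene showed the largest change. Aplnr was at 2.09, 2.78 and 2.26 TPM in the 3 sedentary libraries. Immediately after exercise it was at 0.379, 0.256 and 0.223 TPM in untrained and at 0.379, 0.277 and 0.396 TPM in trained muscle, the first value in each being the shared library. The ranges lay far apart, with a sedentary mean 8.31 times that of untrained 0 h and 6.78 times that of trained 0 h muscle. The difference from sedentary muscle was -1.87 ± 0.13 (log2, SE, adjusted p = 1.38e-07) in untrained and -1.75 ± 0.13 (adjusted p = 2.36e-07) in trained muscle. Without the shared library it was -1.95 (adjusted p = 2.34e-06) and -1.78 (adjusted p = 4.18e-06). Because sedentary Aplnr is only a few times the added constant, its fold change depended on that constant and ranged from -2.69 to -1.39 in untrained and from -2.46 to -1.32 in trained 0 h muscle over the alternative settings.

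At 6 h Aplnr had partly returned. The values were 1.28, 1.14 and 1.69 TPM in untrained and 1.504, 1.31 and 1.24 TPM in trained muscle, above all 0 h and below all sedentary libraries. Relative to 0 h, Aplnr rose by 1.24 ± 0.13 on the log2 scale (adjusted p = 1.24e-05) in untrained and by 1.12 ± 0.13 (adjusted p = 2.43e-05) in trained muscle. Without the shared library these rises were 1.33 (adjusted p = 6.12e-05) and 1.15 (adjusted p = 0.000148). Relative to sedentary muscle, Aplnr was still lower at 6 h by -0.63 in untrained (adjusted p = 0.00446) and by -0.63 in trained muscle (adjusted p = 0.00462). These differences lay close to the fold threshold. Without sedentary replicate 2 they were -0.53 in both, and without untrained 6 h replicate 2 the untrained value was -0.54, below the threshold although the adjusted p stayed under 0.05.

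At 72 h Aplnr was at 2.23, 2.30 and 2.26 TPM in untrained muscle, inside the sedentary range, with a difference of -0.05 (95% confidence interval -0.32 to 0.22, adjusted p = 0.990). In trained muscle at 72 h it was at 1.41, 1.52 and 1.18 TPM, below every sedentary and every untrained 72 h library. That difference from sedentary muscle was -0.62 (95% confidence interval -0.89 to -0.35) and did not pass (adjusted p = 0.0514). The difference between trained and untrained muscle at 72 h was -0.57 (95% confidence interval -0.84 to -0.30) and did not pass either (adjusted p = 0.0652). By level, the groups thus formed 3 non-overlapping tiers, with both 0 h groups lowest, then both 6 h groups and trained 72 h, then sedentary and untrained 72 h muscle. Within a tier the ranges overlapped, at 0 h only because the shared library stands in both groups. Without it, Aplnr was at 0.256 and 0.223 TPM in untrained and at 0.277 and 0.396 TPM in trained 0 h muscle. That difference was 0.17 and was not called.

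The gene Lrrc55os overlaps Aplnr on the same strand. It was at 0.762 TPM or less in every library, with a mean of 0.0551 TPM in sedentary, 0.138 TPM in untrained 0 h and 0.212 TPM in trained 0 h muscle. Its mean without the shared library was 0.0365 TPM in untrained and 0.147 TPM in trained 0 h muscle. The ligand gene Apln was low. Its 3 sedentary values were 0.184, 0.279 and 0.346 TPM, and its values over the series ran from 0.116 to 0.379 TPM. At 0 h it was at 0.379, 0.347 and 0.317 TPM in untrained muscle, overlapping the sedentary range, and at 6 h in trained muscle it was at 0.1285, 0.1299 and 0.1955 TPM. In a fit of 36627 genes with no filter on the mean, the adjusted p of Apln was 0.0944 for the F test. The difference of 6 h from 0 h in trained muscle was -0.35 there (adjusted p = 0.0364), under the fold threshold, and -0.30 (adjusted p = 0.136) without the shared library.

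The receptors of VEGF-A differed in sign. Kdr was at 5.97, 7.49 and 7.67 TPM in sedentary muscle. At 0 h it was at 4.10, 5.17 and 3.65 TPM in untrained and at 4.10, 4.10 and 5.41 TPM in trained muscle, with every 0 h library below every sedentary one. The difference was -0.66 ± 0.16 (adjusted p = 0.021) in untrained and -0.59 ± 0.16 (adjusted p = 0.0326) in trained muscle, so Kdr was called lower in both, in the trained group by a margin at the threshold itself. Without the shared library the differences were -0.63 (adjusted p = 0.0892) and -0.53 (adjusted p = 0.13), and Kdr was not called. Leaving out a single library also ended the untrained call for sedentary replicate 2 (adjusted p = 0.0907), sedentary replicate 3 (0.0557), untrained 0 h replicate 1 (0.0797) and untrained 0 h replicate 3 (0.0862). The trained call ended without sedentary replicate 2 (adjusted p = 0.127), sedentary replicate 3 (0.0724), trained 0 h replicate 1 (0.115) and trained 0 h replicate 2 (0.1). Over the 11 alternative settings Kdr ran from -0.85 to -0.60 in untrained muscle and was called in 9. In trained muscle it ran from -0.80 to -0.53 and was called in 6.

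At 6 h Kdr was at 4.14, 4.23 and 5.78 TPM in untrained muscle, below the sedentary libraries, with a difference of -0.54 that passed the adjusted p (0.0475) and not the fold threshold. In trained muscle at 6 h the values were 6.13, 4.94 and 5.69 TPM, overlapping sedentary muscle (difference -0.31, adjusted p = 0.262). At 72 h Kdr was at 7.84, 7.18 and 6.71 TPM in untrained muscle, overlapping the sedentary range (difference 0.04, 95% confidence interval -0.30 to 0.39). It was at 6.53, 4.86 and 4.33 TPM in trained muscle, where the difference from sedentary was -0.41 (95% confidence interval -0.75 to -0.06, adjusted p = 0.344).

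Flt1 was lowest in sedentary muscle, at 4.81, 5.34 and 6.19 TPM. At 0 h it was at 7.21, 8.39 and 6.86 TPM in untrained and at 7.21, 7.88 and 7.25 TPM in trained muscle, all above the sedentary libraries. The difference was 0.43 ± 0.10 in untrained (adjusted p = 0.0137) and 0.42 ± 0.10 in trained muscle (adjusted p = 0.0135), and without the shared library 0.45 (adjusted p = 0.0427) and 0.44 (adjusted p = 0.0387). These values pass the adjusted p and not the fold threshold, so Flt1 was not called. The median of all tested genes lay at 0.105 in untrained and 0.133 in trained muscle at 0 h in the same scaling, and 0.0139 and 0.0122 after median-of-ratios scaling. After that scaling Flt1 was 0.33 higher (adjusted p = 0.104) in untrained and 0.30 higher (adjusted p = 0.165) in trained muscle, and after rescaling without mitochondrial and the 10 highest genes 0.28 (adjusted p = 0.215) and 0.26 (adjusted p = 0.286).

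At 6 h in trained muscle Flt1 reached its highest group level, at 8.23, 8.03 and 7.69 TPM, with a difference from sedentary of 0.52 ± 0.10 (adjusted p = 0.0032), again below the fold threshold. It was at 7.59, 6.04 and 6.18 TPM in untrained 6 h muscle, overlapping sedentary, with a difference of 0.26 (adjusted p = 0.127). At 72 h it was at 6.46, 5.91 and 5.67 TPM in untrained and at 8.0045, 6.89 and 7.03 TPM in trained muscle, and the trained values lay above both the sedentary and the untrained 72 h libraries. The differences of trained 72 h muscle were 0.40 from sedentary (adjusted p = 0.101) and 0.26 from untrained muscle (adjusted p = 0.233).

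**Figure D2:**
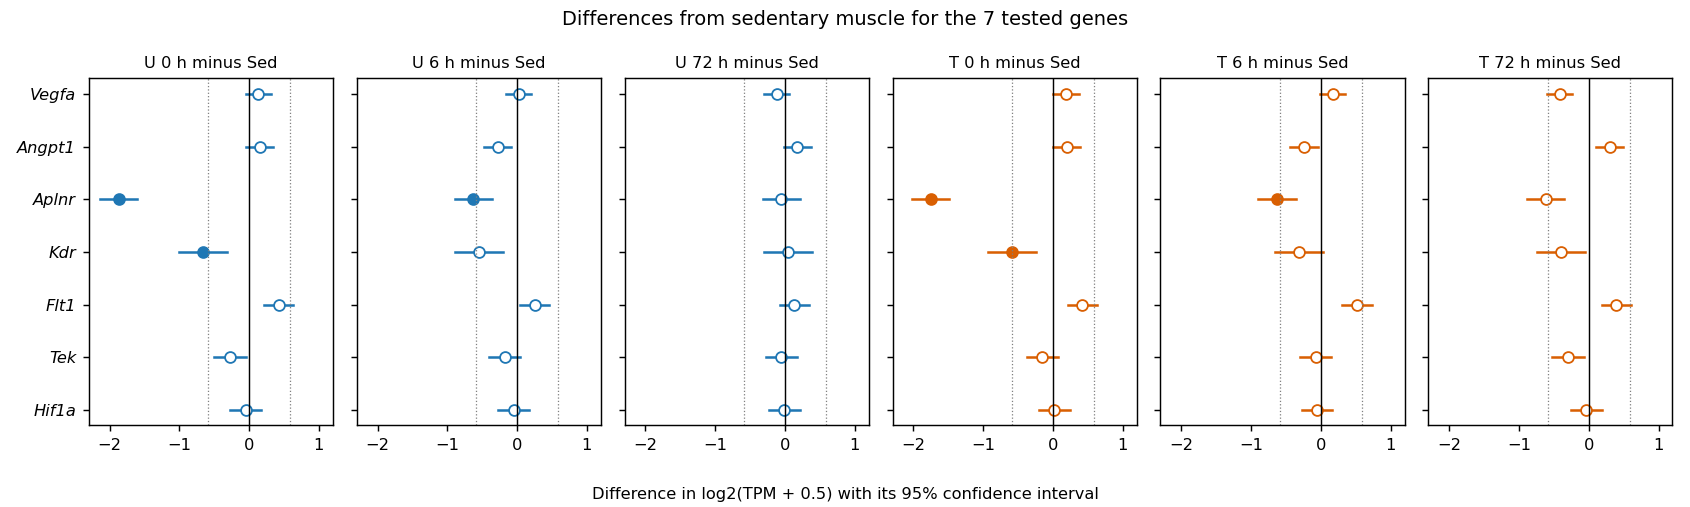
Difference of each exercised group from sedentary muscle in log2(TPM + 0.5) for the 7 tested genes, with limma's 95% confidence interval; filled points were called, dotted lines mark the 1.5-fold threshold in either direction. Aplnr stands at -1.87 and -1.75 at 0 h and Flt1 lies to the right of 0 in all panels, while Kdr lies to the left in all but untrained 72 h.

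The ratio of Flt1 to Kdr, a measure chosen after the values were seen, summarises this pair. In sedentary muscle it ran from 0.713 to 0.807, so Kdr was the more abundant transcript in each library. The ratio ran from 1.62 to 1.88 at 0 h in untrained and from 1.34 to 1.92 at 0 h in trained muscle, where Flt1 was the more abundant transcript in each library. It stayed above 1 at 6 h, from 1.07 to 1.83 in untrained and from 1.34 to 1.63 in trained muscle. At 72 h untrained muscle was at 0.824 to 0.845, below 1 but still above all sedentary libraries, whereas trained muscle was at 1.23 to 1.62. For trained against untrained muscle at 72 h the difference of the mean log2 ratio was 0.77, with no overlap. The two-sided exact permutation p was 0.1, the smallest that 3 against 3 libraries can give (adjusted p = 0.129 over 9 comparisons), and the same p held for each exercised group against sedentary. The ratio does not depend on the scaling of a library. Trained and untrained ratios overlapped at 6 h (exact permutation p = 1). At 0 h the shared library stands in both groups, so they overlap by construction. Without it the untrained ratios were 1.62 and 1.88 and the trained ratios 1.34 and 1.92, which still overlapped, and all 4 lay above the sedentary ratios (exact permutation p = 0.2 for each group, the smallest that 2 against 3 libraries can give).

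**Figure D3:**
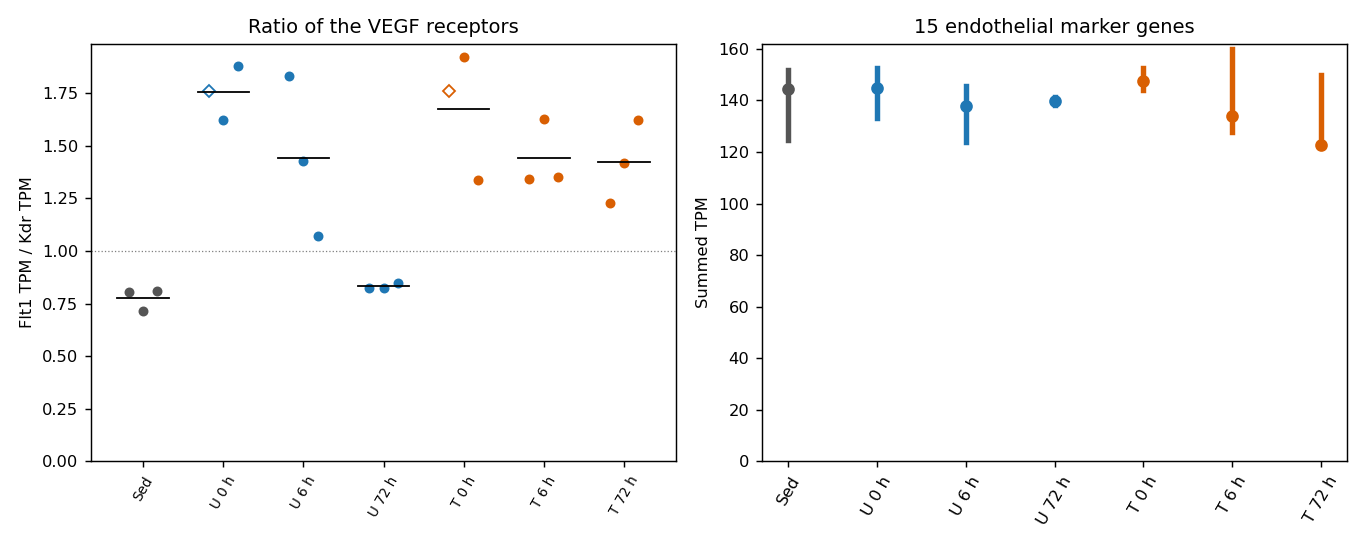
Left, Flt1 TPM divided by Kdr TPM in each library (linear axis from 0, black bars are group means, open diamonds are the shared library, the dotted line marks equal levels); right, summed TPM of 15 endothelial markers, with the line from the lowest to the highest library and the point at the median. The ratio lies below 1 in sedentary and untrained 72 h muscle and above 1 in the other groups, while the range of the marker sums in each exercised group overlaps that of sedentary muscle.

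The receptor Tek was not called in any comparison. It was at 3.66, 4.06 and 4.28 TPM in sedentary muscle, and its lowest group mean was in trained 72 h muscle with 3.73, 2.89 and 2.93 TPM. The difference there was -0.30 (95% confidence interval -0.52 to -0.07, adjusted p = 0.278), and at 0 h it was -0.27 (adjusted p = 0.129) in untrained and -0.15 (adjusted p = 0.361) in trained muscle. Without the shared library the 0 h differences were -0.36 (adjusted p = 0.111) and -0.18 (adjusted p = 0.372). After rescaling without mitochondrial and the 10 highest genes they were -0.46 (adjusted p = 0.0235) and -0.34 (adjusted p = 0.103), so the size of the Tek difference at 0 h depends on the scaling.

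Vegfa was by far the most abundant of the 10 transcripts, with a mean of 87.7 TPM over the libraries. It was at 80.5, 89.3 and 91.5 TPM in sedentary muscle. At 0 h it was at 94.2, 100.2 and 91.8 TPM in untrained and at 94.2, 97.7 and 106 TPM in trained muscle, just above the sedentary libraries. The differences were 0.13 (95% confidence interval -0.05 to 0.31, adjusted p = 0.364) and 0.19 (0.01 to 0.37, adjusted p = 0.172), and without the shared library 0.14 (adjusted p = 0.494) and 0.22 (adjusted p = 0.205). After rescaling without mitochondrial and the 10 highest genes they were -0.04 and -0.003, so the direction of Vegfa at 0 h depends on the scaling. At 6 h Vegfa was at 88.1, 94.1 and 83.7 TPM in untrained and at 103, 87.0 and 105 TPM in trained muscle, both overlapping sedentary muscle, with differences of 0.03 (adjusted p = 0.924) and 0.17 (adjusted p = 0.244).

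At 72 h Vegfa was at 79.0, 75.9 and 85.2 TPM in untrained muscle. In trained muscle it was at 72.2, 63.0 and 60.5 TPM, below all 18 other columns. The difference of trained 72 h from sedentary muscle was -0.42 ± 0.09 (95% confidence interval -0.60 to -0.24, adjusted p = 0.0514), and that from untrained 72 h muscle was -0.30 (95% confidence interval -0.48 to -0.11, adjusted p = 0.134). Neither passed. The adjusted p of the first ran from 0.0341 to 0.206 over the alternative settings, and its size stayed under the fold threshold in all of them.

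Angpt1 was lower at 6 h than at 0 h. It was at 2.10, 2.45 and 2.35 TPM in sedentary muscle. At 0 h it was at 2.55, 2.64 and 2.63 TPM in untrained and at 2.55, 2.61 and 2.96 TPM in trained muscle, above all sedentary libraries. These differences were 0.15 (adjusted p = 0.322) and 0.20 (adjusted p = 0.178) and did not pass. Without the shared library they were 0.17 (adjusted p = 0.457) and 0.23 (adjusted p = 0.224). Over the alternative settings they went down to 0.01 and 0.04. At 6 h Angpt1 was at 1.57, 2.00 and 1.87 TPM in untrained muscle, below all sedentary libraries, and at 2.26, 1.73 and 1.66 TPM in trained muscle. The difference of 6 h from 0 h was -0.43 ± 0.09 (adjusted p = 0.00609) in untrained and -0.44 ± 0.09 (adjusted p = 0.00343) in trained muscle, and without the shared library -0.44 (adjusted p = 0.0223) and -0.47 (adjusted p = 0.00986). All lay below the fold threshold, so Angpt1 was not called. The median of all tested genes was -0.0918 and -0.151 in these comparisons. Over the alternative settings the Angpt1 difference ran from -0.51 to -0.36 in untrained muscle (adjusted p from 0.00554 to 0.0994). In trained muscle it ran from -0.51 to -0.30 (adjusted p from 0.00317 to 0.0901), so it did not pass in every setting. Leaving out each library in turn gave -0.49 to -0.35 in untrained (adjusted p up to 0.0291) and -0.55 to -0.37 in trained muscle (adjusted p up to 0.0183).

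The highest Angpt1 level was in trained 72 h muscle, at 2.76, 3.07 and 3.01 TPM (0.30 above sedentary, 95% confidence interval 0.11 to 0.50, adjusted p = 0.183). In untrained 72 h muscle it was at 2.73, 2.56 and 2.71 TPM. The noncoding gene Gm17473 overlaps Angpt1 on the opposite strand, and the library kit does not mark strand, so their reads cannot be told apart where they overlap. Its mean was 0.546 TPM in sedentary muscle. In untrained muscle it was 0.6955 TPM at 0 h against 0.443 TPM at 6 h, and in trained muscle 0.698 TPM against 0.443 TPM, the same order as for Angpt1. Its part in the Angpt1 values was not tested.

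Angpt2 was at 0.389, 0.424 and 0.497 TPM in sedentary muscle and between 0.327 and 0.612 TPM over the series, and its group ranges overlapped. Its adjusted p for the F test without a filter was 0.959. The opposite-strand gene Mcph1, which overlaps it, was at up to 0.918 TPM. Esm1 was at 0.246, 0.214 and 0.279 TPM in sedentary muscle. At 0 h it was at 0.1346, 0.0951 and 0.149 TPM in untrained muscle, below all sedentary libraries, with a difference of -0.25 in the unfiltered fit (adjusted p = 0.0503), and at 0.1346, 0.1202 and 0.2155 TPM in trained muscle (-0.19, adjusted p = 0.16). These differences were -0.26 (adjusted p = 0.121) and -0.16 (adjusted p = 0.355) without the shared library. At these levels depth may limit what can be seen, and none of the 3 low genes was called.

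Hif1a was at 2.92, 2.83 and 3.15 TPM in sedentary muscle. Its values over all libraries ran from 2.39 to 3.63 TPM, and every group overlapped sedentary muscle. The difference farthest from 0 was -0.05 in trained 6 h muscle, and the 95% confidence intervals of all 6 differences from sedentary muscle lay between -0.28 and 0.24. The 0 h differences were -0.07 in untrained and 0.03 in trained muscle without the shared library. Over the alternative settings they ran from -0.21 to -0.04 in untrained and from -0.16 to 0.03 in trained muscle, and none was called. Levels of the protein were not measured here.

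Set against all tested genes, 2 of the 7 tested genes (Kdr and Aplnr) were called at 0 h in untrained muscle, beside 3.59% of all tested genes, and both were lower, beside 0.618% called lower. The same 2 were called lower at 0 h in trained muscle, beside 3.74% called and 0.347% called lower. At 6 h only Aplnr was called against sedentary, beside 4.42% called and 0.888% called lower in untrained and 3.85% called and 1.44% called lower in trained muscle. Both groups are compared with the same 3 sedentary libraries. From 0 h to 6 h only Aplnr was called, as higher, beside 4.64% called and 2.04% called higher in untrained and 6.46% called and 1.51% called higher in trained muscle. At 72 h 0 of the 7 were called by limma (0 in untrained and 6 in trained muscle had an unadjusted p below 0.05). Of all 11819 tested genes, 0.00846% were called in untrained and 0.169% in trained muscle. An unadjusted p below 0.05 held for 682 of them in untrained and 1379 in trained muscle.

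Trained and untrained muscle were compared directly at each time. None of the 7 genes was called at 0 h, where 0% of all tested genes were called by limma (143 genes had an unadjusted p below 0.05), at 6 h, where 2.01% were, or at 72 h, where 0.245% were. Of the 7, the number with an unadjusted p below 0.05 was 0 at 0 h, 1 at 6 h (Flt1) and 5 at 72 h (all but Angpt1 and Hif1a). Among all 11819 tested genes that number was 143 at 0 h, 2166 at 6 h and 1769 at 72 h. At 0 h, where 1 library stands in both groups, the largest difference was 0.12 for Tek (95% confidence interval -0.11 to 0.34). Without the shared library it was 0.18 for Tek and 0.17 for Aplnr. At 6 h the largest was 0.26 for Flt1 (95% confidence interval 0.05 to 0.47, adjusted p = 0.159), and Aplnr differed by -0.01 (95% confidence interval -0.27 to 0.26). At 72 h Aplnr, Kdr and Vegfa were lower in trained than untrained muscle in all 3 libraries, without passing.

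Other genes of these pathways were described by lists. Of 7 further VEGF ligands and receptors, 4 were tested (Vegfb, Vegfd, Nrp1 and Nrp2) and 0 were called by limma in any comparison (3 of 44 tests had an unadjusted p below 0.05). Vegfb, the abundant ligand of FLT1 in muscle, was at a mean of 50.3 TPM in sedentary muscle and between 49.5 and 54.0 TPM in the exercised groups. Of 4 further Tie and apelin partners, Tie1 and Ptprb were tested and neither was called by limma (0 of 22 tests had an unadjusted p below 0.05). Tie1, the coreceptor of TEK, was at a mean of 5.41 TPM in sedentary muscle and between 5.18 and 5.62 TPM elsewhere.

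Of 9 further HIF subunits and regulators, 7 were tested and Egln3 was called. EGLN3 is a prolyl hydroxylase that marks HIF alpha subunits for degradation and is itself induced by HIF. It was at a mean of 6.29 TPM in sedentary, 11.8 TPM in untrained 6 h and 29.2 TPM in trained 6 h muscle. The difference from sedentary was 0.82 ± 0.24 (adjusted p = 0.0392) in untrained and 2.14 ± 0.24 (adjusted p = 5.59e-05) in trained muscle, and the difference between these was itself called (1.32 ± 0.24, adjusted p = 0.00359). The trained 6 h libraries ran from 24.5 to 31.8 TPM and the untrained ones from 7.43 to 14.98 TPM, without overlap. The untrained call against sedentary muscle ended on leaving out any of sedentary replicates 1, 2 and 3 or untrained 6 h replicates 1 and 3 (adjusted p from 0.0515 to 0.166), whereas the trained call and the difference between trained and untrained muscle were kept in every such fit.

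Of 15 genes known to be induced by hypoxia, 14 were tested. At 0 h 2 were called higher in both untrained and trained muscle, Ddit4, an inhibitor of mTORC1 signalling, and P4ha1, a collagen prolyl hydroxylase. Of all 11819 tested genes, 351 were called higher at 0 h in untrained and 401 in trained muscle, and 417 and 285 at 6 h. Ddit4 rose from a mean of 1.36 TPM to 32.1 TPM in untrained (4.10 ± 0.31, adjusted p = 3.73e-07) and 37.2 TPM in trained muscle (4.26 ± 0.31, adjusted p = 2.36e-07). At 6 h 3 were called higher in untrained (Ddit4, Hk2 and P4ha1) and 2 in trained muscle (Ddit4 and Hk2). Without untrained 6 h replicate 3 the difference of P4ha1 in untrained muscle was 0.57, under the fold threshold. At 72 h 0 were called by limma (2 in untrained and 4 in trained muscle had an unadjusted p below 0.05). Hk2, which encodes hexokinase 2, was at a mean of 49.2 TPM in sedentary, 129 TPM in untrained 6 h and 135 TPM in trained 6 h muscle. The median difference of the list was 0.0727 and 0.24 at 0 h and 0.0546 and 0.1 at 6 h in untrained and trained muscle, beside 0.105, 0.133, 0.0148 and -0.0146 for all tested genes. Between trained and untrained muscle 0 of the 14 were called by limma (0 at 0 h, 3 at 6 h and 3 at 72 h had an unadjusted p below 0.05). The 2 calls at 0 h were the same without the shared library.

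Of 12 tip cell and sprouting genes, 9 were tested. Hes1, a transcription factor induced by Notch among other signals, rose at 0 h from a mean of 5.49 TPM to 25.7 TPM in untrained (2.04 ± 0.29, adjusted p = 0.000277) and 32.2 TPM in trained muscle (2.39 ± 0.29, adjusted p = 5.43e-05). Without the shared library the untrained difference was 1.66 ± 0.24 (adjusted p = 0.000861), and Hes1 was still called in both groups. Rgcc, a regulator of the cell cycle, was called higher at 0 h in trained muscle (0.84, adjusted p = 0.0222), a call that ended in 5 of 6 fits without 1 library (adjusted p from 0.0501 to 0.0753), and at 6 h in both untrained (2.30) and trained muscle (1.39). It was lower in trained than untrained muscle at 6 h (-0.91, adjusted p = 0.022), a call that ended without untrained replicate 2, trained replicate 2 or trained replicate 3 of that time (adjusted p from 0.0755 to 0.0898). Nid2, a basement membrane protein, was called lower at 6 h in trained muscle (-0.67, adjusted p = 0.0406), a call that ended in 5 of 6 fits without 1 library (adjusted p up to 0.14).

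**Figure D4:**
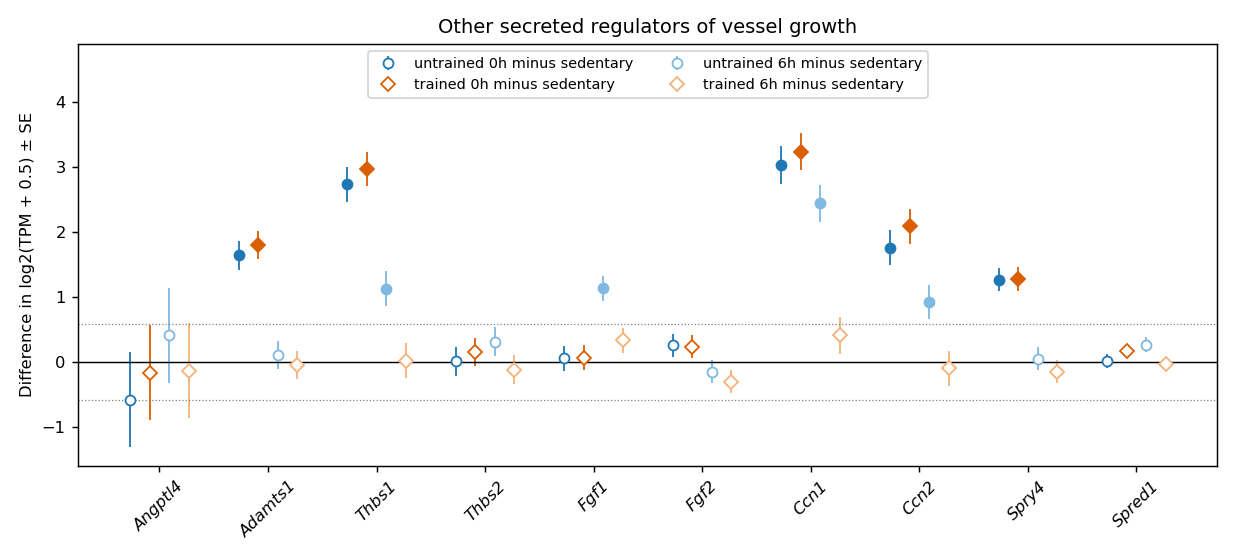
Difference from sedentary muscle in log2(TPM + 0.5), with its standard error, for the 10 tested genes of other secreted regulators of vessel growth; filled symbols were called and dotted lines mark the 1.5-fold threshold. In all, 5 genes stand above 1 in both 0 h groups, and at 6 h the filled symbols belong to untrained muscle alone.

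Of the lists described here, that of other regulators of vessel growth, most of them secreted, had the most calls at 0 h. Of 12 genes, 10 were tested, and 5 were called higher at 0 h in both untrained and trained muscle, beside 351 and 401 of all 11819 tested genes. Ccn1, a matricellular integrin ligand, rose from a mean of 6.09 TPM to 50.8 TPM in untrained (3.04 ± 0.29, adjusted p = 4.54e-06) and 58.1 TPM in trained muscle (3.24 ± 0.29, adjusted p = 2.14e-06). Thbs1, the angiogenesis inhibitor thrombospondin 1, rose from 1.31 to 11.5 and 14.0 TPM, and Ccn2 from 2.81 to 10.3 and 12.97 TPM. Adamts1 and Spry4, an intracellular inhibitor of receptor tyrosine kinase signalling, completed the 5. The list thus held inducers and inhibitors together. Its median difference was 0.764 in untrained and 0.755 in trained muscle, beside 0.105 and 0.133 for all tested genes, and the same 5 were called without the shared library.

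At 6 h 4 of the 10 were called higher in untrained muscle (Thbs1, Fgf1, Ccn1 and Ccn2), and 0 in trained muscle by limma (0 with an unadjusted p below 0.05). The same 4 were called lower in the trained than in the untrained group, and the median difference of the list was -0.488 beside -0.0365 for all tested genes. Of all 11819 tested genes, 417 were called higher at 6 h in untrained and 285 in trained muscle, and 172 lower in trained than untrained muscle. Ccn1 was at 27.8 to 47.0 TPM in untrained and 5.24 to 9.44 TPM in trained muscle (difference -2.03 ± 0.29, adjusted p = 0.000715). Leaving out each library in turn changed the number of genes lower in trained muscle to between 1 and 5. It was 1 without untrained 6 h replicate 2 and 1 without trained 6 h replicate 3, 2 without untrained 6 h replicate 3 and 2 without trained 6 h replicate 2, and Ccn1 was among them each time. Ccn2 was the least stable, its call ending in 5 of 6 such fits (adjusted p up to 0.196). The number higher in untrained 6 h muscle than in sedentary muscle was between 2 and 5, being 2 without sedentary replicate 1 and 2 without untrained 6 h replicate 2.

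Of 10 macrophage markers 8 were tested, and 2 of them, Cd68 and Csf1r, were called at 6 h against sedentary muscle. All 10 summed to between 44.96 and 49.6 TPM in sedentary, 40.0 and 84.2 TPM in untrained 6 h and 37.4 and 55.0 TPM in trained 6 h muscle. Both were called higher in untrained 6 h than in sedentary muscle and lower in trained than untrained muscle at 6 h, but the Csf1r call against sedentary muscle ended without sedentary replicate 1, sedentary replicate 2 or untrained 6 h replicate 2 (adjusted p from 0.0539 to 0.0659). Without untrained 6 h replicate 2 its difference between trained and untrained muscle was -0.55, under the fold threshold. At 72 h Cd68 was called higher in untrained muscle, a call that ended in 4 of 6 such fits, where the markers summed to between 64.2 and 69.2 TPM. The part of these cells in the values above was not tested.

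For endothelial cells, which carry most of the receptors, 14 of 15 markers were tested. The summed TPM ran from 125 to 152 in sedentary, 133 to 153 in untrained 0 h, 144 to 153 in trained 0 h, 124 to 146 in untrained 6 h, 128 to 160 in trained 6 h, 138 to 141 in untrained 72 h and 122 to 150 in trained 72 h muscle. These ranges overlapped with sedentary muscle at every time, including 0 h, where Aplnr and Kdr were low and Flt1 was high. Cdh5, the VE-cadherin gene, was at 17.4 to 20.6 TPM in sedentary and 14.5 to 20.9 TPM in untrained 0 h muscle. Single markers did differ. Sox18, a transcription factor of endothelial cells, was lower at 0 h in untrained (-1.13, adjusted p = 0.0178) and trained muscle (-1.11, adjusted p = 0.0179), calls that were not kept without the shared library. Sox17 was higher at 0 h in trained muscle (0.59, adjusted p = 0.0398), a call that ended in 6 of 6 fits without 1 library (adjusted p up to 0.132), and Cldn5, a tight junction protein of endothelium, was lower at 6 h in untrained muscle (-1.04, adjusted p = 0.0463), a call that ended in 5 of 6 fits without 1 library.

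Of 9 pericyte and vascular smooth muscle markers, all 9 were tested and Pdgfrb was called lower at 0 h in untrained muscle (-0.65, adjusted p = 0.000911), a call kept without the shared library that fell just under the fold threshold without sedentary replicate 3 or untrained 0 h replicate 3 (-0.57 in each). The 9 markers summed to between 106 and 127 TPM in sedentary, 113 and 132 TPM in untrained 0 h and 122 and 137 TPM in trained 0 h muscle. At 6 h the sums were 93.6 to 105 TPM in untrained muscle, below all sedentary libraries, and 101 to 116 TPM in trained muscle. From 0 h to 6 h Pdgfrb was called higher and Acta2 lower in both. The Acta2 calls were not kept without the shared library. Among 6 fibro-adipogenic markers, Col1a1 and Col3a1 were called lower at 6 h in trained muscle, calls that ended in 5 and 3 of 6 fits without 1 library. The 1 tested satellite cell marker was not called, and of 8 muscle fibre markers Mb, which encodes myoglobin, had a higher level at 6 h in the trained than in the untrained group (0.73, adjusted p = 0.0127), a call that ended in 3 of 6 such fits. The list as a whole went the other way, with a median difference of -0.147 beside -0.0365 for all tested genes. Its 8 markers summed to between 90040 and 97686 TPM in trained and between 100360 and 107520 TPM in untrained 6 h muscle.

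Across the 20 distinct libraries, the genes whose log2 levels were most like those of each varying gene were ranked by Pearson's r, as a description, since the libraries share groups. Aplnr was most like Myct1, an endothelial gene (r = 0.96), then Efna1 (0.888), the ligand ephrin-A1, and Septin4 (0.887). Myct1 was also called lower at 0 h, by -0.97 in untrained and -0.92 in trained muscle (-1.02 and -0.94 without the shared library). Kdr was most like Ets1 (r = 0.92), a transcription factor of the ETS family, Plxdc1 (0.898) and Ddx17 (0.875). Flt1 was most like Pde4c (0.873), Aqp1 (0.812) and Gpihbp1 (0.802), the last of which encodes the capillary anchor of lipoprotein lipase. Aqp1, a water channel of capillary endothelium, was called higher at 0 h by 0.67 in untrained and 0.68 in trained muscle (0.70 and 0.72 without the shared library). Vegfa was most like Pnn (0.878), Slc35a4 (0.871) and Vmp1 (0.865), and Angpt1 most like Rtl6 (0.89), Sspn (0.883) and Itpr1 (0.875). Among the genes described here, Kdr went with Tek (r = 0.771) and Aplnr (0.751), whereas Flt1 and Aplnr had r = -0.593 and Flt1 and Kdr r = -0.407.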

How the data were processed

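Whole quadriceps RNA was sequenced after preparation with a TruSeq v2 kit. The authors aligned reads to GRCm39 with STAR 2.7.9 and deposited TPM values per gene made with salmon 1.5.0 (versions per the submitters' processing notes). All columns were mapped to labelled samples. The deposited TPM were taken unchanged and put on the scale log2(TPM + 0.5), and 11819 of 53738 symbols with a mean of at least 1 TPM entered 1 limma model (limma 3.58.1, R 4.3.3) with a mean per group, a variance trend and 14 residual degrees of freedom. P values were adjusted (Benjamini-Hochberg) over all tested genes within each of 11 comparisons. The ratio of Flt1 to Kdr was compared by exact permutation tests. The procedure was tested on simulated data. The 10 genes and all lists were chosen with earlier results of these data known, so no list is independent evidence. All 10 genes were named whatever their values. In the list of other regulators of vessel growth, 1 gene is not reported here and was left out of its counts. From a list, at most the 4 called genes with the largest fold change and 2 further genes were named for a comparison, and the 3 most alike genes were named for each gene that passed the F test. Overlapping genes were read from the GRCm39 GENCODE annotation. Alternatives were pseudocounts of 0.1 and 1, no filter, a minimum mean of 5 TPM, scaling by the median of ratios, rescaling after removal of mitochondrially encoded and the 10 highest genes, only the groups compared, no variance trend, no fold threshold, the replicate number as a block, leaving out the shared library and leaving out each library. Ranges given over the alternative settings do not include the fits that leave out each library in turn. Leaving out libraries for the F test and the lists, and the shared library for the ratio, the low genes and the most alike genes, was added after the data were seen.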

Additional observations from a re-analysis of the deposited data

How the results depend on the processing

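The number of the 10 genes called changed as follows. At 0 h against sedentary, 2 genes were called in untrained and 2 in trained muscle. With a mean of at least 5 TPM it was 1 in each (Kdr, Aplnr being untested), and 1 in each without the shared library or with only the groups compared (Aplnr). In trained 0 h muscle it was also 1 with a pseudocount of 1, with no filter and with the replicate block. Without a fold threshold it was 3 in each, with Flt1 added. Dropping that threshold can only add calls, among all tested genes as well. Of all 11819 tested genes, 424 were called in untrained and 442 in trained 0 h muscle, and 349 and 386 without the shared library. At 6 h, where 1 of the 10 genes was called in each, the number was 0 in each with a pseudocount of 1, with a mean of at least 5 TPM and with only the groups compared, and 2 in each without a fold threshold. Rescaling without mitochondrial and the 10 highest genes gave 2 in untrained 6 h muscle. In trained 72 h muscle, where 0 were called, median-of-ratios scaling and a variance without trend gave 1 (Aplnr). For 6 h against 0 h, where 1 was called in untrained and in trained muscle, a mean of at least 5 TPM gave 0 and no fold threshold gave 2 in each. The F test passed 5 genes, 3 of the 3 tested at a mean of at least 5 TPM, and 6, with Tek added, after rescaling without mitochondrial and the 10 highest genes. Leaving out each library in turn gave 1 to 2 called genes at 0 h against sedentary, 0 to 2 at 6 h, and 5 to 5 for the F test. With a mean of at least 5 TPM Aplnr could not be called, being untested, and the cause of the other changes was not tested. Of 1223 fold changes of single genes under these settings, 1189 kept their side of the thresholds, 22 lost and 12 gained a call, and 0 called values changed sign. The replicate numbers did not pair libraries (62 same-numbered pairs, r from -0.115 to 0.134), and under the replicate block Kdr in trained 0 h muscle had an adjusted p of 0.0507. TPM keeps no depth, which limits low genes, and 3 libraries per group, 2 distinct at 0 h without the shared one, limit all tests.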
